A study of Mus musculus with 18 samples.

Results

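The genes described are the suppressor of cytokine signalling family of the mouse, Socs1 to Socs7 and Cish. They were chosen by name and found in the count tables by their Ensembl identifiers. The family has 8 members of the 49671 gene models in the tables, and all 8 are among the 14080 genes that passed the filter on low counts. RNA was sequenced from T cells of the CD8 and CD4 lineages, sorted by flow cytometry out of B16f10-OVA tumors, a melanoma line of the B6 strain that makes ovalbumin, after 12 days under the skin of B6 mice. The treated deficient mice carried the floxed miR-155 gene ("155 Flox") with Cre under the CD4 promoter, and their treatment was blocking antibody to PD-1/PD-L1 and to CTLA-4, injected into the peritoneum on days 3, 6 and 9, in 250 ul. The deficient mice had the same alleles and no antibodies, and the floxed mice carried the floxed gene without Cre and had no antibodies. Every group therefore shares the floxed allele, the strain and the tumor line, and the CD4 promoter makes Cre in developing T cells of both lineages. Each of the 6 groups (3 per cell type) has 3 libraries, and each library pools the cells of 2 to 3 tumors of different mice. Floxed mice with antibodies were not analysed here, so the antibody comparison ("blockade") is within deficient cells alone.

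SOCS proteins are feedback brakes. A cytokine receptor activates its JAK kinases, these phosphorylate STAT factors, and the STATs switch on SOCS genes, whose products bind the receptor or the JAK through an SH2 domain and recruit a ubiquitin ligase through the SOCS box. Socs1 and Socs3 also block the kinase itself. Socs1 restrains mainly interferon gamma and interleukin 2 family signals and Socs3 those of gp130 receptors such as the interleukin 6 receptor, while Cish and Socs2 follow STAT5, and Cish dampens interleukin 2 and T cell receptor signals in T cells. Socs1 is among the best known targets of miR-155, a microRNA of activated lymphocytes.

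The sequences that set Socs1 apart from most of its relatives are the miR-155-5p seed and its match in the Socs1 3′ UTR. The capitals mark the seed (bases 2 to 8) in the microRNA and the 8-base match in the transcript, which pairs with the seed and has an A opposite base 1.
mmu-miR-155-5p: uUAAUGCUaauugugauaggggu
Socs1 3′ UTR site: tgccgctgtgccgcAGCATTAAgtgg
The microRNA lies at chr16:84714143-84714165 on the plus strand (RefSeq, GRCm38.p6). The Socs1 stretch lies at chr16:10784202-10784227 on the minus strand (GENCODE M21, GRCm38), in the 3′ UTR and inside the counted gene model, and the match begins at base 20 of that UTR. Among the 8 members the 8-base match AGCATTAA was found in the longest annotated 3′ UTR of Socs1 and of Socs6 alone, once in each, and Socs6 held a further 7-base match, GCATTAA. The letters of the inner 6-base match, GCATTA, were absent from the 3′ UTRs of Socs2, Socs3, Socs4, Socs5, Socs7 and Cish. Of 21037 genes with an annotated 3′ UTR, 2.99% held the 8-base match and 19.5% the 6-base one.

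The promoters of Cish and Socs3 are shown because these genes moved most in CD8 cells and in opposite directions. RefSeq's table (GRCm38.p6) gave the stretch from 250 bases before to 50 bases after the gene start for Cish, Socs1, Socs3 and Socs4. The motif searched was TTCNNNGAA, the letters of a STAT site, which reads the same on both strands and is in capitals.
Cish promoter: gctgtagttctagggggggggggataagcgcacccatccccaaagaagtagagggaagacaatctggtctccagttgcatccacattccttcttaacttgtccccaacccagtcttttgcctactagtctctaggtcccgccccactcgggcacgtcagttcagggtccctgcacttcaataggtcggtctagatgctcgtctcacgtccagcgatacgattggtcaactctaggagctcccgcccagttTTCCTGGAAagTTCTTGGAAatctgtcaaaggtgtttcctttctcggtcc
Socs3 promoter: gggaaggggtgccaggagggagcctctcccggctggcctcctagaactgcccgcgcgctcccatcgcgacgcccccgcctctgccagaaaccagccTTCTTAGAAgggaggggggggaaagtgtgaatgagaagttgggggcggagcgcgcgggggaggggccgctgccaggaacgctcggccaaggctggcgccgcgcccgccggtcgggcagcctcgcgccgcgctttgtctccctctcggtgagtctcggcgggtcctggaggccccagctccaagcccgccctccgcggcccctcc
The Cish stretch is chr9:107296409-107296708 on the plus strand and the Socs3 stretch chr11:117969317-117969616 on the minus strand. Cish held the motif 2 times, as TTCCTGGAA and TTCTTGGAA at bases 1 and 12 from the gene start, and Socs3 held TTCTTAGAA once, at base -154. Socs1 and Socs4 held no match in this window. Of 32851 promoters in the table, 8.30% held at least 1 match and 0.457% at least 2. The start in RefSeq's table lies inside the counted gene model, 633 bases from its first base for Cish and 681 for Socs3, so these windows are within the models and not upstream of them. A match is a run of letters and not evidence of binding.

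The gene models, in the coordinates of the files (GRCm38), are Socs1 (ENSMUSG00000038037, chr16:10783808-10785536, minus strand), Socs2 (ENSMUSG00000020027, chr10:95385362-95417180, minus strand), Socs3 (ENSMUSG00000053113, chr11:117966079-117970047, minus strand) and Socs4 (ENSMUSG00000048379, chr14:47276931-47296098, plus strand). The others are Socs5 (ENSMUSG00000037104, chr17:87107679-87137583, plus strand), Socs6 (ENSMUSG00000056153, chr18:88665224-88927481, minus strand), Socs7 (ENSMUSG00000038485, chr11:97362551-97398542, plus strand) and Cish (ENSMUSG00000032578, chr9:107296026-107302784, plus strand). No member overlaps or adjoins another. Antisense models overlap Cish, and the counting used strand.

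The libraries held 3.2 to 11.65 M counts (M, mega) and 15165 to 19533 detected genes. In treated deficient CD8 replicate 2, 24.6% of counts fell on a single gene model. Levels are counts per M counts (CPM) after TMM scaling. The floor of 3 counts lay between 0.258 and 1.24 CPM by library, below every level of a member given here. Mir155hg, the host transcript of miR-155, checked the genotype labels, with 4, 1 and 5 counts in treated deficient CD8 cells, 2, 7 and 12 in deficient CD8 cells and 144, 196 and 51 in floxed CD8 cells. In CD4 cells it had 1, 0 and 2 counts in treated deficient, 5, 0 and 2 in deficient and 29, 60 and 27 in floxed libraries. Cd8a averaged 1039, 679.6 and 1303 CPM in treated deficient, deficient and floxed CD8 cells, and Cd4 averaged 952, 602 and 378 CPM in the matching CD4 groups. Cd8a was also present at 14.6, 149 and 142 CPM in floxed CD4 libraries, against 1.83, 17.4 and 4.96 CPM in treated deficient and 0.259, 0.136 and 0.282 CPM in deficient ones. Transcripts of other cells were present in every group. The summed level of 13 melanoma markers was 368 to 1755 CPM in treated deficient, 1428 to 3249 in deficient and 160.5 to 201 in floxed CD8 libraries, and 454 to 2056, 1905 to 4506 and 160.0 to 676 in the matching CD4 libraries. The sum of 18 macrophage and monocyte markers was 1857 to 1993, 2125 to 3835 and 1110 to 2592 CPM in the CD8 groups in that order, and 4946 to 6985, 5087 to 7094 and 14330 to 29705 in the CD4 groups. No marker of either list was at 0 in a group.

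Per kilobase of gene model, Socs3 was the most abundant member and Socs1 the second in each of the 6 groups, and Socs2 was the least abundant in each. Socs3 stood at 31.9 ± 2.91 CPM per kb in treated deficient, 126 ± 32.2 in deficient and 28.1 ± 6.28 in floxed CD8 cells (SD, n = 3 each). Its CD4 levels were 63.0 ± 14.3, 118 ± 32.6 and 116 ± 9.58 CPM per kb in treated deficient, deficient and floxed cells. Socs1 followed with 28.5 ± 2.37, 40.2 ± 2.56 and 19.97 ± 1.88 CPM per kb in the CD8 groups and 54.6 ± 5.67, 46.5 ± 7.21 and 37.3 ± 4.66 in the CD4 groups, in the same order. In treated cells of both types the libraries of Socs3 and Socs1 overlapped, so their order there was within the spread. Below them, the members ran from 6.85 CPM per kb (Socs5) to 0.335 (Socs2) in deficient CD8 cells and from 5.81 (Socs5) to 3.97 (Socs2) below Cish, at 10.1, in deficient CD4 cells. Most neighbours in that order overlapped in CD4 cells. The length used for Socs1 is that of the counted model, which is shorter than the transcript of the newer annotation. Counted lengths run from 1220 bases for Socs1 to 9531 for Socs2, with 6419 for Cish, and the order depends on them. In CPM without division by length, Socs2 was above Socs5 in treated deficient (44.1 against 24.1), deficient (37.9 against 25.5) and floxed CD4 cells (39.1 against 21.3). Per kb, the Socs2 libraries overlapped those of the member ranked above it in each CD4 group.

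Socs3 made up 64.9% of the summed per-kb level of the family in deficient CD8 cells (60.3% to 71.7%), against 36.0% in floxed CD8 cells (35.0% to 36.7%). In treated deficient CD8 cells its share was 36.3% (33.6% to 39.2%). Cish made up 6.65% in treated deficient, 0.946% in deficient and 10.3% in floxed CD8 cells, and it ranked seventh of the members in deficient CD8 cells alone. The shares of Socs3 in CD4 cells were 39.3% in treated deficient, 58.2% in deficient and 58.7% in floxed cells. These shares depend on the same counted lengths and were compared as a description, with no test.

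**Figure D1:**
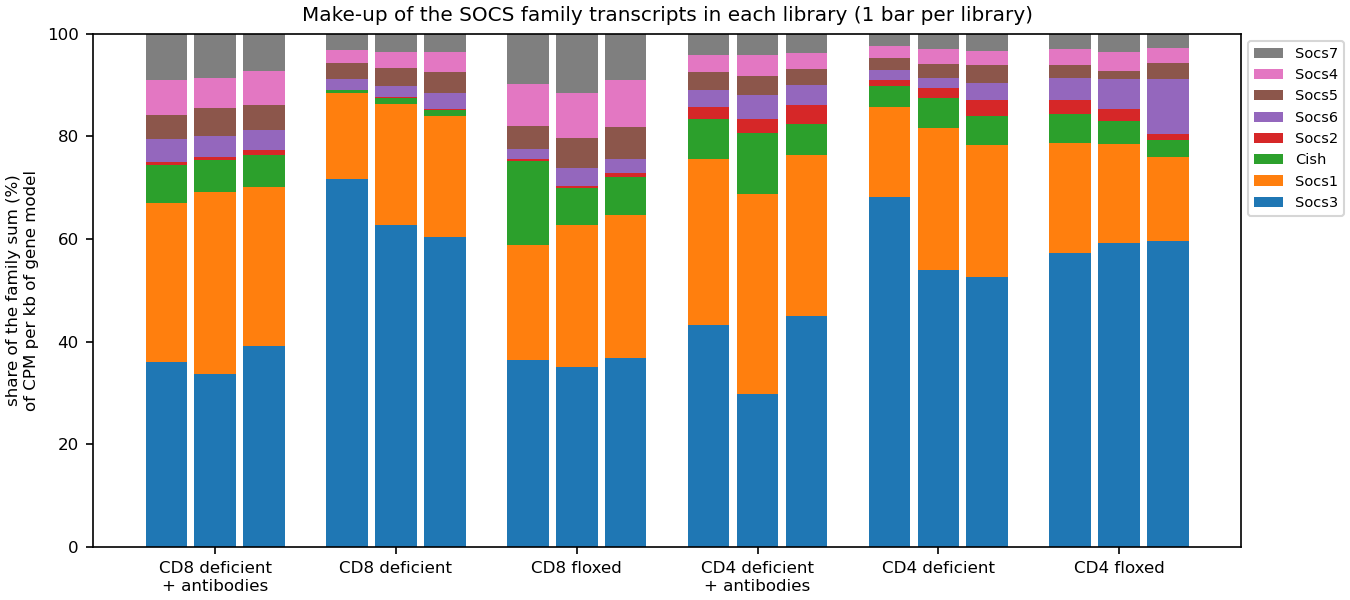
Make-up of the family in each library. Each bar is 1 library and each colour the share (%) of a member in the summed CPM per kb of gene model. Socs3 fills 60.3% to 71.7% of each bar of deficient CD8 cells and 35.0% to 36.7% of each bar of floxed CD8 cells.

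In CD8 cells, 5 of the 8 members differed between deficient and floxed cells. Socs1, Socs3, Socs5 and Socs6 were higher in deficient cells and Cish was lower, while Socs2, Socs4 and Socs7 did not pass the test. Over all genes tested, 19.3% were called in either direction, 9.65% as higher and 9.61% as lower. Genes were tested by quasi-likelihood in edgeR, p-values were adjusted over all genes by the Benjamini-Hochberg method and genes were called at an adjusted p under 0.05, and changes are log2 fold changes ± SE. The p-values measure the spread between pooled libraries only. In bulk RNA, fewer cells of a type and less RNA per cell cannot be told apart.

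Socs1, the member with the miR-155 site described above, had 46.5, 52.5 and 48.1 CPM in deficient CD8 libraries, against 26.6, 24.4 and 22.04 CPM in floxed CD8 libraries. Every deficient library lay above every floxed one, as was so, in either direction, for 5 of the 8 members and for 34.2% of all genes in this comparison. The change was 1.01 ± 0.15 (adjusted p = 1.11e-04), which is 2.01-fold. Leaving out any 1 library gave 0.95 to 1.06 and kept the call.

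Socs3, the brake on gp130 receptors, had 469, 333 and 291 CPM in deficient CD8 libraries, against 102, 73.1 and 68.8 CPM in floxed ones. The lowest deficient library lay above the highest floxed library. The change was 2.16 ± 0.22 (adjusted p = 5.44e-06), or 4.48-fold. Its 3′ UTR, as given above, held no match to the miR-155 seed. Its interval of 1.68 to 2.64 does not reach that of Socs1, 0.68 to 1.34, on the same log2 scale, but the difference between these genes was not tested.

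Cish, the STAT5-induced brake, had 6.59, 15.04 and 11.9 CPM in deficient CD8 libraries, against 102, 33.3 and 30.9 CPM in floxed CD8 libraries. All deficient libraries lay below all floxed ones, and floxed replicate 1 stood far above the other two floxed libraries. The change was -2.32 ± 0.44 (adjusted p = 0.00207), and without floxed replicate 1 it was -1.55 (adjusted p = 0.00108). Across the other libraries left out in turn it ran from -2.60 to -2.04.

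Socs6, which binds receptor tyrosine kinases such as Kit and whose 3′ UTR also holds the seed match, had 38.9, 30.6 and 42.4 CPM in deficient CD8 libraries, against 15.4, 21.02 and 15.1 CPM in floxed ones. The groups did not overlap, and the change was 1.11 ± 0.28 (adjusted p = 0.00945). The call was lost without floxed replicate 1 (adjusted p = 0.0544). Socs5, a member that acts on the epidermal growth factor receptor in cell lines, had 31.2, 28.8 and 30.2 CPM in deficient CD8 libraries, against 19.4, 18.3 and 17.4 CPM in floxed CD8 libraries. Its libraries did not overlap either, and its change of 0.71 ± 0.24 (adjusted p = 0.0398) missed the threshold without any 1 of the 6 libraries, with adjusted p of 0.0678 to 0.120.

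The remaining members gave smaller differences. Socs2 had 1.88, 3.57 and 4.12 CPM in deficient CD8 libraries, against 4.27, 3.62 and 5.15 CPM in floxed ones (change -0.45 ± 0.38, 95% interval -1.27 to 0.38, adjusted p = 0.461). Socs4 had 40.9, 40.2 and 45.5 CPM in deficient CD8 libraries, against 54.4, 43.6 and 40.9 CPM in floxed CD8 libraries (change -0.14 ± 0.15, 95% interval -0.45 to 0.18, adjusted p = 0.579). Socs7, a member that binds adaptor proteins, had 50.6, 46.5 and 42.1 CPM in deficient CD8 libraries, against 69.0, 60.7 and 42.5 CPM in floxed ones (change -0.31 ± 0.16, 95% interval -0.65 to 0.03, adjusted p = 0.180). The libraries of all 3 overlapped between the groups. The intervals leave room for changes of up to about 1.27 (log2) for Socs2 and are narrower for Socs4 and Socs7.

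Transcripts of other cells moved with this comparison. In deficient CD8 cells 12 of 13 melanoma markers, 8 of 18 macrophage and monocyte markers, 4 of 10 dendritic cell markers and 2 of 5 natural killer cell markers were called higher, and 3 of 8 T cell markers lower, with summed T cell marker levels of 2396 to 2494 CPM in deficient and 2951 to 3764 CPM in floxed libraries. With the melanoma and macrophage sums as covariates, Socs3 alone kept its call, at 1.96 ± 0.36 (adjusted p = 0.0171). The values of the other called members were then 1.03 ± 0.32 for Socs1 (adjusted p = 0.166), -1.49 ± 0.88 for Cish (0.576), 1.63 ± 0.46 for Socs6 (0.116) and 0.52 ± 0.49 for Socs5 (0.758). That fit called 107 of all genes, against 2712 without covariates, so a lost call was not particular to these members.

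**Figure D2:**
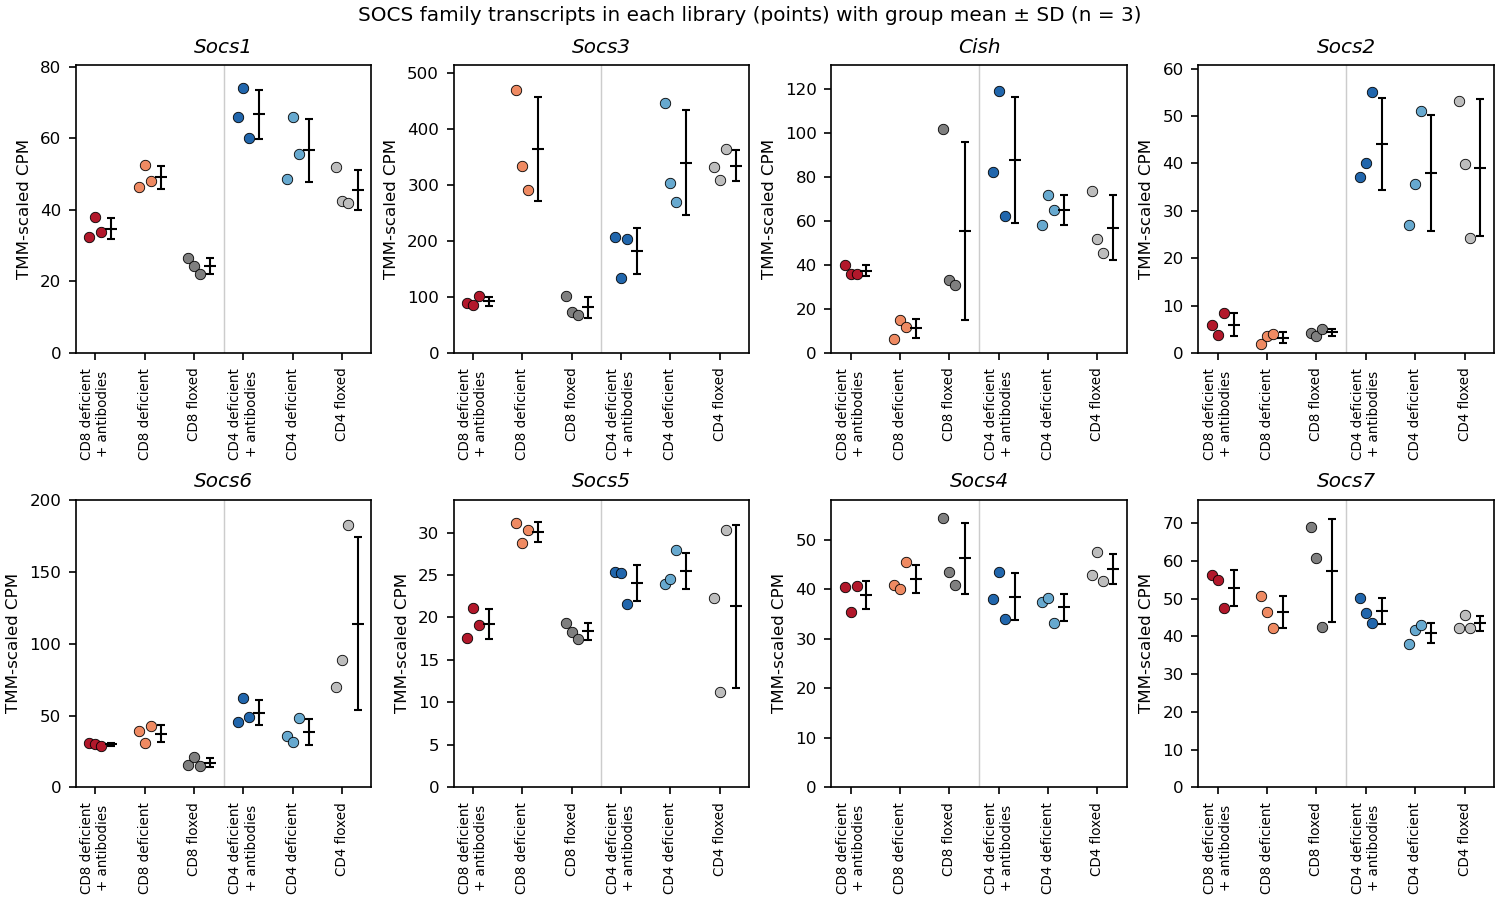
Level of each member in each library. The y axis is TMM-scaled CPM on a linear scale from 0, points are the 3 libraries of a group, and the bar beside them is the mean ± SD. Socs3 lies between 291 and 469 CPM in deficient CD8 cells and between 68.8 and 102 CPM in floxed CD8 cells.

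In CD4 cells, the same comparison called 1 of the 8 members, where 11.7% of all genes were called (4.61% higher and 7.06% lower). Socs6 had 35.8, 31.4 and 48.5 CPM in deficient CD4 libraries, against 70.2, 88.8 and 183 CPM in floxed CD4 libraries. All deficient libraries lay below all floxed ones, and floxed replicate 3 was the highest library of the series for this gene. The change was -1.57 ± 0.27 (adjusted p = 0.00119), and it stayed called without each library in turn, between -1.87 and -1.09. The macrophage and monocyte markers moved the same way: 14 of 18 were called lower, with a sum of 5087, 7031 and 7094 CPM in deficient CD4 libraries and 18987, 14330 and 29705 CPM in floxed CD4 libraries. The library with the largest macrophage sum was also the one with the highest Socs6. Floxed replicates 1 and 2 went the other way, with sums of 18987 and 14330 CPM and Socs6 at 70.2 and 88.8 CPM. Whether macrophage RNA contributes to the Socs6 change was not tested. With the marker sums as covariates the Socs6 change was -0.23 ± 0.48 (adjusted p = 0.943). That fit called 9 of all genes, against 1643 without covariates.

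Socs1 had 48.5, 66.0 and 55.6 CPM in deficient CD4 libraries, against 52.1, 42.5 and 42.0 CPM in floxed CD4 libraries. The ranges overlapped, and the change of 0.32 ± 0.15 was not called (adjusted p = 0.197). The unadjusted p of the quasi-likelihood test was 0.0463. The 95% interval, -0.01 to 0.64, crossed 0 because it was built on the residual degrees of freedom alone. It is therefore wider than the interval of the test itself. Socs3 had 447, 304 and 269 CPM in deficient CD4 libraries, against 331, 308 and 363 CPM in floxed CD4 libraries, with a change of 0.03 ± 0.21 (95% interval -0.43 to 0.48, adjusted p = 0.964). Its libraries of floxed CD4 cells overlapped those of deficient CD8 cells. The macrophage and monocyte sums were 14330 to 29705 CPM in floxed CD4 libraries and 2125 to 3835 CPM in deficient CD8 libraries. With the marker sums as covariates the Socs3 change in CD4 cells was -1.003 ± 0.38 (adjusted p = 0.497). Cish had 58.3, 72.0 and 64.9 CPM in deficient CD4 libraries, against 73.7, 51.9 and 45.5 CPM in floxed ones (change 0.19 ± 0.40, 95% interval -0.69 to 1.06, adjusted p = 0.838).

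Socs2 had 27.0, 35.6 and 51.1 CPM in deficient CD4 libraries, against 53.1, 39.9 and 24.3 CPM in floxed CD4 libraries (change -0.07 ± 0.30, adjusted p = 0.932). Socs5 had 23.98, 24.6 and 27.9 CPM in deficient CD4 libraries, against 22.3, 11.2 and 30.3 CPM in floxed ones (change 0.27 ± 0.24, adjusted p = 0.546), and the floxed libraries spread widely. Socs4, at 37.5, 38.3 and 33.3 CPM in deficient and 43.0, 47.5 and 41.7 CPM in floxed CD4 libraries, did not overlap between the groups but was not called (-0.28 ± 0.15, adjusted p = 0.267); over all genes 28% did not overlap in this comparison. Socs7 had 37.8, 41.7 and 42.9 CPM in deficient and 42.3, 45.8 and 42.2 CPM in floxed CD4 libraries, and its change was -0.09 ± 0.16 (adjusted p = 0.785).

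The difference between the deletion effects, CD8 minus CD4, was tested itself and called for 4 of 8 members, against 11.6% of all genes (6.89% higher and 4.72% lower). It was 2.68 ± 0.39 for Socs6 (adjusted p = 2.67e-04), whose change was 1.11 in CD8 and -1.57 in CD4 cells. It was 2.14 ± 0.30 for Socs3 (adjusted p = 2.15e-04) and -2.50 ± 0.59 for Cish (adjusted p = 0.0125). For Socs1 it was 0.69 ± 0.21 (adjusted p = 0.0369), with the call lost without any 1 of 8 of the 12 libraries involved. The difference was not called for Socs2, Socs4, Socs5 and Socs7, with estimates between -0.38 and 0.44. With the marker sums as covariates the difference stayed called for Socs3 alone (2.97 ± 0.46, adjusted p = 0.00496). That fit called the difference for 129 of all genes, against 1634 without covariates.

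**Figure D3:**
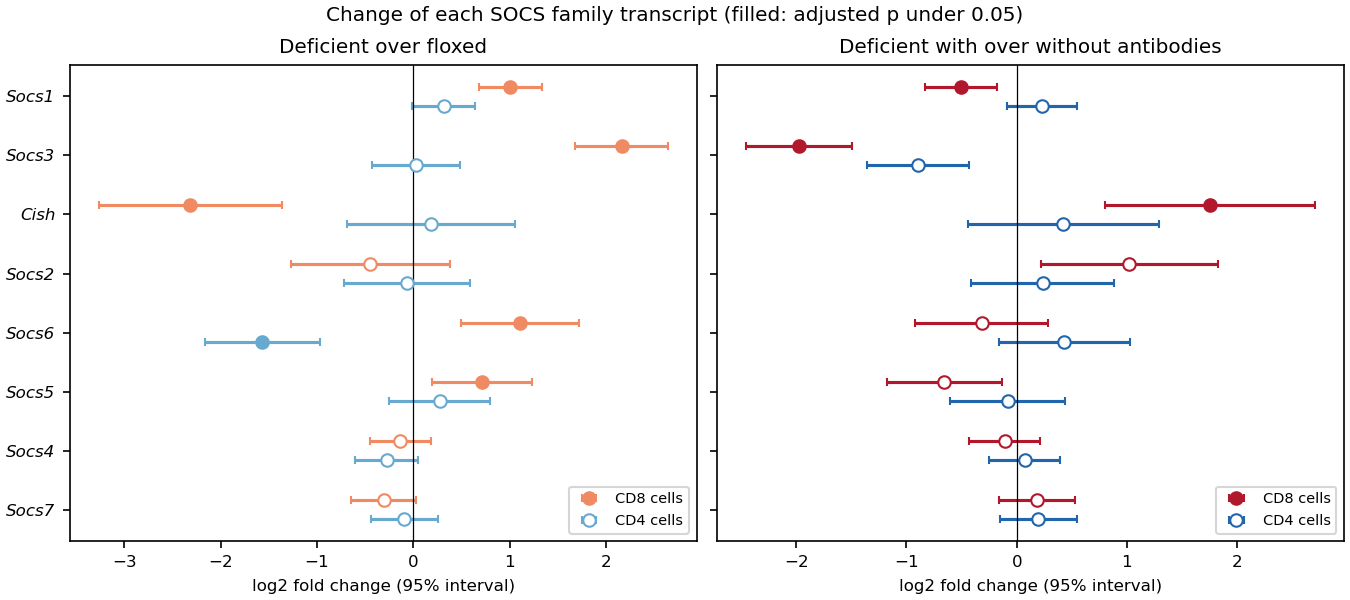
Log2 fold change of each member in the deletion (left, deficient over floxed) and blockade (right, deficient with over without antibodies) comparisons, for CD8 and CD4 cells. Lines are 95% intervals and filled points have an adjusted p under 0.05. Socs3 and Cish lie on opposite sides of 0 in CD8 cells in both panels, which share the deficient libraries.

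Within deficient CD8 cells, 3 members differed between treated and untreated mice, where 13.8% of all genes were called (8.25% higher and 5.53% lower). Cish was higher in treated cells, and Socs3 and Socs1 were lower. The deletion comparison above uses the same 3 deficient CD8 libraries, so the opposite signs of these members there are not separate evidence, and no overlap was tested.

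Socs3 had 89.5, 85.5 and 102 CPM in treated deficient CD8 libraries, against 469, 333 and 291 CPM in deficient CD8 libraries. The groups were far apart, with a change of -1.98 ± 0.22 (adjusted p = 1.56e-05), and the treated libraries overlapped those of floxed CD8 cells. Socs1 had 32.4, 38.0 and 33.9 CPM in treated deficient CD8 libraries, against 46.5, 52.5 and 48.1 CPM in deficient ones. All treated libraries were lower, and all were above the 3 floxed CD8 libraries given earlier. The change of -0.51 ± 0.15 (adjusted p = 0.0287) missed the threshold without any 1 of 5 of the 6 libraries (adjusted p 0.0608 to 0.120) and with no filter on low counts (adjusted p = 0.105).

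Cish had 40.2, 35.9 and 36.1 CPM in treated deficient CD8 libraries, against 6.59, 15.04 and 11.9 CPM in deficient CD8 libraries. The treated libraries lay close together, above every deficient library and among the floxed ones. The change was 1.75 ± 0.44 (adjusted p = 0.0159), and the call was lost without deficient replicate 1, deficient replicate 3 or treated replicate 1 (adjusted p 0.0527 to 0.0642). The marker sums also differed here: 13 of 18 macrophage and monocyte markers were called lower in treated cells, 1 was called higher, and no melanoma marker was called. Of the dendritic cell markers 5 of 10 were called lower and 1 higher, and 3 of 8 T cell markers were called higher, with T cell marker sums of 3862 to 3921 CPM in treated deficient and 2396 to 2494 CPM in deficient CD8 libraries. In deficient CD8 replicates 1, 2 and 3 the melanoma sums were 3249, 3184 and 1428 CPM, and the macrophage sums 2125, 2984 and 3835 CPM. Socs3 stood at 469, 333 and 291 CPM in these libraries. In treated replicates 1, 2 and 3 the melanoma sums were 368, 493 and 1755 CPM, and the macrophage sums 1975, 1993 and 1857 CPM. Socs3 stood at 89.5, 85.5 and 102 CPM there. Whether RNA of other cells contributes to the Socs3 change was not tested. With both marker sums as covariates Socs3 was at -1.91 ± 0.24 (adjusted p = 0.000151), Cish at 1.32 ± 0.60 (0.256) and Socs1 at -0.52 ± 0.21 (0.174). That fit called 710 of all genes, against 1941 without covariates.

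Socs2 had 5.85, 3.72 and 8.48 CPM in treated deficient CD8 libraries, against 1.88, 3.57 and 4.12 CPM in deficient ones (change 1.02 ± 0.37, adjusted p = 0.0712). Socs5 had 17.5, 21.1 and 19.2 CPM in treated deficient CD8 libraries, against 31.2, 28.8 and 30.2 CPM in deficient CD8 libraries (change -0.66 ± 0.24, adjusted p = 0.0744). The Socs5 groups did not overlap, as was the case for 44.1% of all genes, and DESeq2 (adjusted p = 0.0409), limma voom (0.0339) and a fit of CD8 libraries alone (0.0157) called it. Socs6 had 30.7, 30.2 and 28.9 CPM in treated deficient CD8 libraries, against 38.9, 30.6 and 42.4 CPM in deficient ones (change -0.32 ± 0.28, adjusted p = 0.494). Socs4, at 40.5, 35.5 and 40.6 CPM in treated deficient and 40.9, 40.2 and 45.5 CPM in deficient CD8 libraries, and Socs7, at 56.3, 54.9 and 47.4 CPM in treated deficient and 50.6, 46.5 and 42.1 CPM in deficient CD8 libraries, overlapped between the groups (changes -0.11 and 0.18, adjusted p = 0.689 and 0.483).

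Within deficient CD4 cells no member was called under blockade by edgeR, where 0.142% of all genes were called (0.0852% higher and 0.0568% lower). Socs3 had 207, 134 and 204 CPM in treated deficient CD4 libraries, against 447, 304 and 269 CPM in deficient CD4 libraries. The treated libraries were all lower, as in CD8 cells, with a change of -0.90 ± 0.21 (95% interval -1.36 to -0.43, adjusted p = 0.116). At an unadjusted p under 0.05 Socs3 was the 1 member past the threshold, and DESeq2 called it (adjusted p = 0.00859), as did the fit with no filter on low counts, while limma voom called no member. Socs1 had 65.8, 74.0 and 60.2 CPM in treated deficient CD4 libraries, against 48.5, 66.0 and 55.6 CPM in deficient ones (change 0.23 ± 0.15, 95% interval -0.09 to 0.55, adjusted p = 0.583). Cish had 82.2, 119 and 62.4 CPM in treated deficient CD4 libraries, against 58.3, 72.0 and 64.9 CPM in deficient CD4 libraries (change 0.42 ± 0.40, 95% interval -0.45 to 1.29, adjusted p = 0.733). Both overlapped between the groups. No melanoma or macrophage marker was called here, with melanoma sums of 643, 454 and 2056 CPM in treated deficient and 4506, 3845 and 1905 CPM in deficient CD4 libraries.

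None of the other members was called. Socs2 had 37.1, 40.0 and 55.1 CPM in treated deficient CD4 libraries and Socs6 had 45.2, 61.9 and 48.6 CPM in treated deficient CD4 libraries, both overlapping the deficient libraries given above. Socs4 had 38.1, 43.6 and 34.1, Socs5 25.3, 25.3 and 21.6 and Socs7 50.3, 46.3 and 43.5 CPM in treated deficient CD4 libraries. Their changes and those of Socs2 and Socs6 lay between -0.08 and 0.43, with adjusted p of 0.573 to 0.934. The Socs7 libraries did not overlap (20% of all genes did not).

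The difference between the blockade effects, CD8 minus CD4, was called by edgeR for no member and for 0.803% of all genes (0.575% higher and 0.227% lower). At an unadjusted p under 0.05 it passed for 3 members, DESeq2 called 2 (Socs1 and Socs3) and limma voom 0. It was -1.08 ± 0.30 for Socs3 (adjusted p = 0.109), -0.73 ± 0.21 for Socs1 (adjusted p = 0.113) and 1.33 ± 0.59 for Cish (adjusted p = 0.370). In treated and untreated deficient mice, libraries of CD8 and CD4 cells with the same number deviated together (r of 0.122 to 0.370). No correlation was computed between libraries with different numbers, so these r values have no reference. With a replicate block within genotype and treatment, the difference passed for Socs3 (-1.08, adjusted p = 0.00581) and Cish (1.45, adjusted p = 0.0413) but not for Socs1 (-0.74, adjusted p = 0.068). With the marker sums as covariates it passed for Socs3 (-1.24, adjusted p = 0.0170). 

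CD8 and CD4 cells were compared within each genotype and treatment, and Socs2 was the member that was lower in CD8 cells in all 3. Of 8 members, 4 were called in treated deficient cells, all lower in CD8 cells, where 20.4% of all genes were called (9.36% higher and 11% lower). In deficient cells 2 were called, both lower in CD8 cells (15.6% of all genes, 6.21% higher and 9.39% lower). In floxed cells 5 were called, of which Socs7 was higher and the others lower in CD8 cells (39.1% of all genes, 18.9% higher and 20.2% lower).

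Socs2, a STAT5-induced member best known for restraining growth hormone signalling, had 5.85, 3.72 and 8.48 CPM in CD8 libraries of treated deficient mice, against 37.1, 40.0 and 55.1 CPM in their CD4 libraries. The deficient and floxed libraries given above showed the same gap, with every CD8 library below every CD4 library. The difference was -2.79 ± 0.33 in treated deficient (adjusted p = 6.66e-06), -3.57 ± 0.36 in deficient (adjusted p = 6.68e-07) and -3.19 ± 0.34 in floxed cells (adjusted p = 3.94e-07). Its CD8 levels were low, from 9 to 81 counts per library.

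Socs1 was lower in CD8 than in CD4 cells of treated deficient mice (-0.94 ± 0.15, adjusted p = 1.49e-04) and of floxed mice (-0.90 ± 0.15, adjusted p = 7.89e-05). In deficient mice the libraries of the cell types overlapped and the difference was -0.21 ± 0.15 (adjusted p = 0.388). For Socs3 the difference was -0.98 ± 0.22 in treated deficient (adjusted p = 0.00324), 0.10 ± 0.21 in deficient (adjusted p = 0.817) and -2.04 ± 0.22 in floxed cells (adjusted p = 9.12e-07). Cish differed otherwise: it was lower in CD8 cells of treated deficient (-1.21 ± 0.41, adjusted p = 0.0488) and deficient mice (-2.55 ± 0.44, adjusted p = 0.00123), and was not called in floxed mice (-0.05 ± 0.40, adjusted p = 0.942).

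Floxed CD8 replicate 1 decided that last value, since without it Cish was lower in floxed CD8 cells as well (-0.82, adjusted p = 0.0272). The Cish call of treated mice was lost in 5 of 6 leave-outs, and the replicate block gave it an adjusted p of 0.0524. Socs6 was lower in floxed CD8 cells (-2.71 ± 0.29, adjusted p = 6.37e-07), beside the macrophage sums given above for floxed CD4 cells, and not called in deficient cells (-0.04 ± 0.27, adjusted p = 0.955). In treated deficient cells it was at -0.79 ± 0.28 (adjusted p = 0.0513), and it passed with the replicate block within genotype and treatment (-0.76, adjusted p = 0.0247). Socs7 was at 0.40 ± 0.16 in floxed cells (adjusted p = 0.0470) with overlapping libraries, and lost that call in 5 of 6 leave-outs and with limma voom. Socs4 and Socs5 were called in none of the 3 comparisons. Macrophage and monocyte markers were lower in CD8 cells for 16 of 18 in treated deficient, 7 of 18 in deficient and 16 of 18 in floxed mice. With the marker sums as covariates, calls remained for Socs1, Socs2 and Socs3 in treated deficient mice, for Socs2 and Cish in deficient mice and for Socs3 alone in floxed mice, where Socs2 was at -2.12 (adjusted p = 0.296) and Socs1 at -1.03 (adjusted p = 0.320). In floxed mice that fit called 484 of all genes, against 5506 without covariates.

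**Figure D4:**
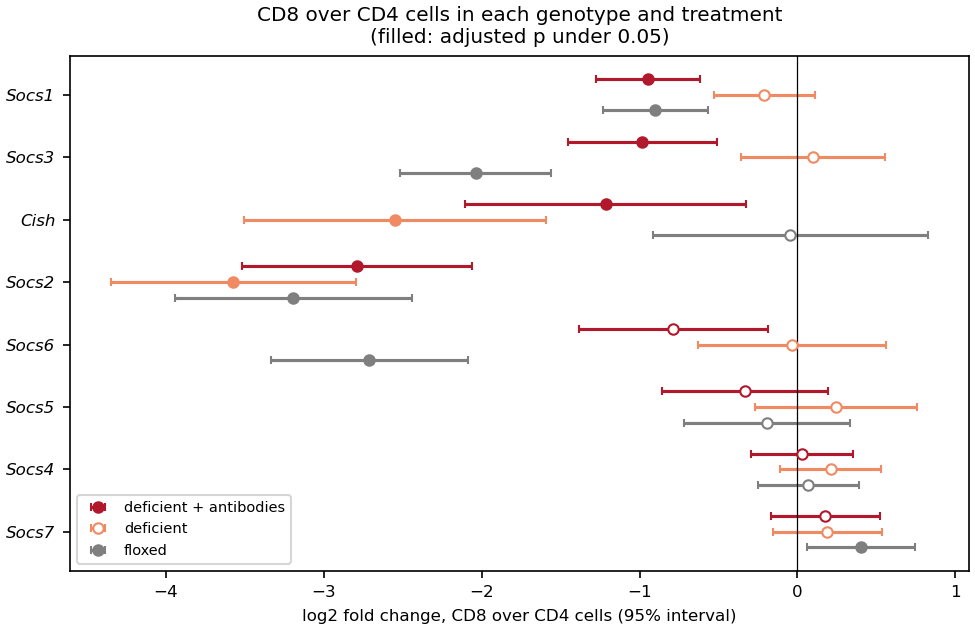
Log2 fold change of each member in CD8 over CD4 cells, in treated deficient, deficient and floxed mice. Lines are 95% intervals and filled points have an adjusted p under 0.05. Socs2 lies between -3.57 and -2.79 in all 3, while Socs1, Socs3 and Socs6 lie near 0 in deficient mice.

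Ratios of counts inside a library do not depend on the scaling between libraries. The ratio of Socs1 to Cish was 0.806, 1.06 and 0.939 in treated deficient CD8 libraries, 7.05, 3.49 and 4.05 in deficient and 0.261, 0.733 and 0.713 in floxed CD8 libraries. In CD4 cells it was 0.801, 0.621 and 0.965 in treated deficient, 0.831, 0.917 and 0.857 in deficient and 0.706, 0.818 and 0.923 in floxed libraries. The 3 deficient CD8 libraries stood apart from the other 15, which lay between 0.261 and 1.06. The ratio of Socs3 to Cish was 2.22, 2.38 and 2.81 in treated deficient, 71.2, 22.1 and 24.5 in deficient and 1.001, 2.19 and 2.22 in floxed CD8 libraries, and again deficient CD8 libraries were the highest of the series. No test was made of the ratios.

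**Figure D5:**
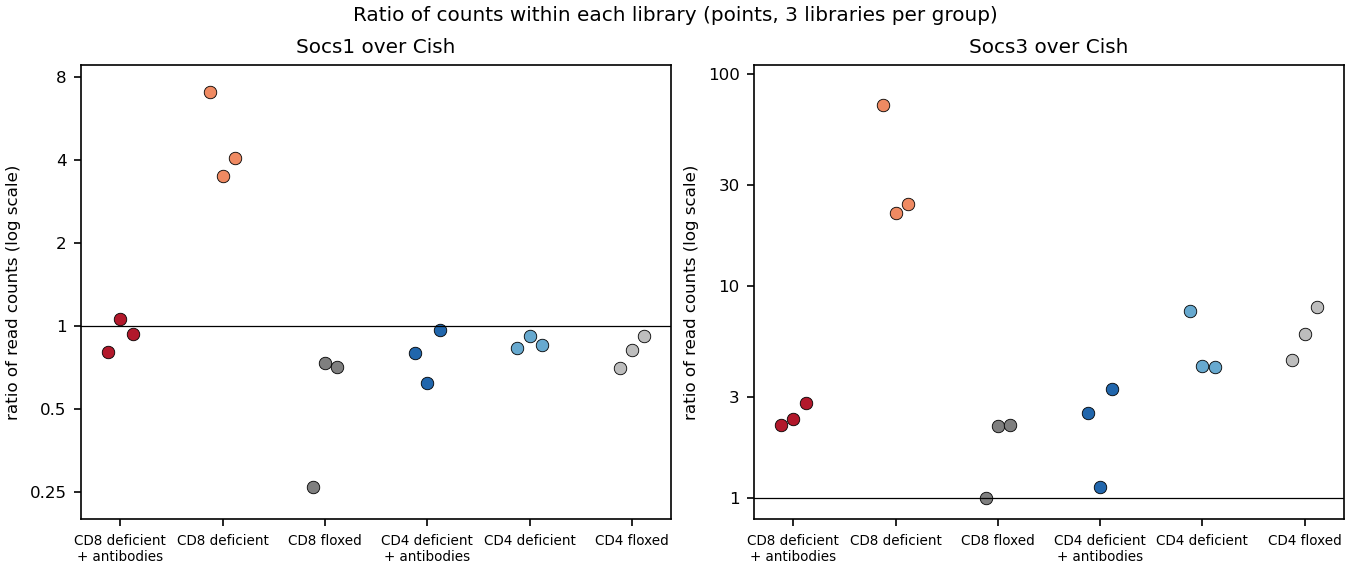
Ratio of counts of Socs1 over Cish (left) and Socs3 over Cish (right) within each library, on a log scale, with 3 libraries per group and a line at 1. Deficient CD8 libraries lie at 3.49 to 7.05 on the left and at 22.1 to 71.2 on the right, above all other libraries.

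Genes next to the members on the chromosome were looked at after the values were seen. Tha1, the nearest tested gene on 1 side of Socs3 and 92598 bases away, changed by 2.41 ± 0.32 in the CD8 deletion comparison (adjusted p = 3.43e-05) and by -2.50 ± 0.32 under CD8 blockade (adjusted p = 3.39e-05). Pgs1, on the other side, was at 0.08 ± 0.16 (adjusted p = 0.794) and -0.49 ± 0.16 (adjusted p = 0.0432). Mapkapk3, a kinase gene that starts 6149 bases from Cish and is read the other way, changed by -1.55 ± 0.17 in the CD8 deletion (adjusted p = 5.99e-06) and 0.99 ± 0.17 in the CD8 blockade comparison (adjusted p = 5.93e-04). In the CD4 deletion comparison Mapkapk3 was at -0.49 ± 0.17 (adjusted p = 0.0660) and Tha1 at 0.44 ± 0.30 (adjusted p = 0.408). Hemk1, on the other side of Cish, was at -0.44 ± 0.23 in the CD8 deletion (adjusted p = 0.206), 0.95 ± 0.23 in the CD4 deletion (adjusted p = 0.00959) and 1.16 ± 0.23 in the CD8 blockade comparison (adjusted p = 0.00218). Of the 16 nearest genes of the 8 members, 4 were called in the CD8 deletion comparison, which besides Tha1 and Mapkapk3 were Mcfd2 beside Socs5 (0.78 ± 0.18) and Wdhd1 beside Socs4 (-0.75 ± 0.18); Socs4 itself was not called. In the CD4 deletion comparison 3 of 16 were called (Hemk1, Mcfd2 at -0.60 ± 0.18 and Rttn beside Socs6 at -0.65 ± 0.20), and in the CD8 blockade comparison 5 of 16, among them Arhgap23 beside Socs7 (-1.67 ± 0.56). Of all genes tested, 19.3%, 11.7% and 13.8% were called in the CD8 deletion, CD4 deletion and CD8 blockade comparisons. Cish also lies on chromosome 9 between Rpl29 and Tma7, which were lower in deficient cells of both types. Both were looked up by name and not by a rule, so they do not stand for the other genes between them. Rpl29, 864458 bases away, changed by -1.98 ± 0.40 in CD8 (adjusted p = 0.00162) and -2.07 ± 0.41 in CD4 cells (adjusted p = 0.00241). Tma7, 1771784 bases away on the other side, changed by -2.01 ± 0.33 in CD8 (adjusted p = 3.12e-04) and -2.31 ± 0.35 in CD4 cells (adjusted p = 2.98e-04). Cish changed by -2.32 in CD8 and 0.19 in CD4 cells; whether the Cre mice carry a different stretch of chromosome there was not tested.

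By likeness over the 18 libraries, the genes with the smallest root mean square difference from Socs1 in centred log2 CPM, out of 10023 compared, were Irf1 (0.18), Cyth1 (0.18) and Foxo3 (0.19). Irf1 is the interferon-induced transcription factor, and it averaged 488 CPM in treated deficient, 626 in deficient and 397 in floxed CD8 cells. For Socs3 they were Gpr146 (0.24), Klf2 (0.30) and Arl5c (0.32). Klf2, a factor of quiescent and recirculating T cells, averaged 45.9 CPM in treated deficient, 168 in deficient and 54.3 in floxed CD8 cells. For Cish they were Il2ra (0.36), the interleukin 2 receptor alpha chain, Prdm1 (0.40), the gene of the Blimp-1 repressor, and Ttc39c (0.46). For Socs2 they were Asb2 (0.33), itself a SOCS box gene, and the costimulatory receptors Icos (0.55) and Tnfrsf4 (0.56). The libraries share tumors, cell types and depth, so these values are a description.

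The rest of the pathway was followed with lists of its parts, given as genes called higher and lower of those tested. In the CD8 deletion comparison, cytokine receptor chains had 9 higher and 4 lower of 21 (median 0.58, against -0.01 for all genes). Of all genes, 19.3% were called there (9.65% higher and 9.61% lower). Ifngr1, the ligand-binding chain for interferon gamma, changed by 1.08 ± 0.14 (adjusted p = 2.23e-05), Il4ra by 1.18 ± 0.15 (adjusted p = 3.43e-05) and Il10ra by -1.37 ± 0.13 (adjusted p = 1.62e-06). Of the JAK kinases, Jak2 was higher (0.60 ± 0.11) and Jak3 (-0.81 ± 0.19) and Tyk2 (-0.53 ± 0.14) were lower, with adjusted p of 9.60e-04, 0.00587 and 0.00943. Of the STAT factors, Stat3 was lower (-0.79 ± 0.15, adjusted p = 0.00106). None of the 6 partners of the SOCS box in the ubiquitin ligase (elongins, cullins and RING proteins) was called.

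Genes that STAT factors switch on moved unevenly. Of 13 STAT5 targets 3 were higher and 2 lower in deficient than in floxed CD8 cells (median 0.11): granzyme B, Gzmb, was at -1.76 ± 0.25 (adjusted p = 1.80e-04), the survival gene Bcl2 at 1.36 ± 0.26 (adjusted p = 0.00184) and the cytokine gene Osm, the 1 ligand called of 11, at 1.08 ± 0.22 (adjusted p = 0.00196). Of 10 STAT3 targets 4 were higher and 2 lower, with Maf at 1.51 ± 0.19, Mcl1 at 0.58 ± 0.12 and Prdm1 at -2.05 ± 0.28 (adjusted p = 2.20e-05, 0.00150 and 8.30e-05). Of 15 other brakes 1 was higher and 2 lower: Usp18, the brake on interferon receptors, at 1.30 ± 0.27, the ligase Cblb at -1.66 ± 0.34 and the phosphatase Ptpn11 at -0.47 ± 0.15 (adjusted p = 0.00239, 0.00397 and 0.0339). Without floxed CD8 replicate 1, Cblb was at -0.90 and Prdm1 at -1.53, both still called. The sums of melanoma and macrophage markers given above moved with the same comparison. With these sums as covariates, 4 of the 16 pathway genes named here kept their calls (Ifngr1, Il4ra, Il10ra and Jak2), and Ptpn11 changed sign. Of all genes, 107 were called in that fit, against 2712 without covariates. The counts of the brakes (3 of 15) stand beside 19.3% of all genes called in this comparison, so the share of brakes was near that of all genes.

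Under CD8 blockade, receptor chains had 3 higher and 8 lower of 21 (median -0.21, against -0.03 for all genes). Of all genes, 13.8% were called in this comparison (8.25% higher and 5.53% lower). Both interleukin 6 receptor chains were among the lower receptor chains. Il6st (gp130), the chain that Socs3 acts on, was at 59.6 CPM in treated deficient and 183 CPM in deficient CD8 cells (-1.61 ± 0.18, adjusted p = 7.33e-06). Il6ra stood at 7.49 CPM in treated deficient and 51.9 CPM in deficient CD8 cells (-2.72 ± 0.34, adjusted p = 4.81e-05). Il10ra was higher, at 1.59 ± 0.13 (adjusted p = 5.76e-07), and so was the ligand Il10 (2.15 ± 0.45, adjusted p = 0.00433), the 1 ligand called of 11. Tyk2 (0.58 ± 0.14), Jak3 (0.72 ± 0.19), Stat3 (0.60 ± 0.15) and Elob, elongin B (0.42 ± 0.13), were higher, with adjusted p of 0.00711, 0.0164, 0.0117 and 0.0334. Of the other brakes, Sh2b3, the adaptor that restrains Jak2, was lower (-1.33 ± 0.29, adjusted p = 0.00422). With the marker sums as covariates, 10 of the 15 pathway genes named for this comparison kept their calls. Of all genes, 710 were called in that fit, against 1941 without covariates.

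STAT5 targets had 1 higher and 2 lower of 13 under CD8 blockade, with Gzmb at 2.63 ± 0.26, Pim2 at -1.09 ± 0.30 and Bcl2 at -0.84 ± 0.26 (adjusted p = 9.24e-06, 0.0182 and 0.0411). STAT3 targets had 3 higher and 1 lower of 10, with Prdm1 at 1.94 ± 0.28, Hif1a at 0.77 ± 0.14 and Fos at -1.21 ± 0.17 (adjusted p = 2.04e-04, 0.00107 and 8.37e-05). The median changes of these lists were 0.08 for STAT5 and 0.00035 for STAT3 targets, against -0.03 for all genes. Their counts stand beside 13.8% of all genes called in this comparison (8.25% higher and 5.53% lower).

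In the CD4 deletion comparison, where 11.7% of all genes were called, receptor chains had 1 higher and 2 lower of 21, with Ifngr1 at 0.56 ± 0.13, Il10ra at -0.62 ± 0.13 and Lifr at -2.49 ± 0.57 (adjusted p = 0.00881, 0.00336 and 0.0119). With the marker sums as covariates none of the 17 pathway genes named for this comparison kept its call, and Ifngr1 (-0.067), Lifr (0.22), Il12b (1.45) and Stat4 (-0.0021) changed sign. That fit called 9 of all genes, against 1643 without covariates, so a lost call was not particular to these genes. The called ligands, 3 of 11, were lower: Il15 (-1.65 ± 0.41), Il12b (-3.92 ± 1.101) and Ifng (-1.60 ± 0.44), with adjusted p of 0.0118, 0.0255 and 0.0305. Il15 and Il12b are made mainly by macrophages and dendritic cells. Of the markers of these cells, 14 of 18 (macrophages and monocytes) and 4 of 10 (dendritic cells, with 1 higher) were called lower as well. Whether fewer such cells account for the lower Il15 and Il12b was not tested. Jak2 (0.36 ± 0.11), Stat5b (0.60 ± 0.16) and Stat4 (0.53 ± 0.15) were higher and Stat2 (-0.95 ± 0.25) lower, with adjusted p of 0.0439, 0.0175, 0.0254 and 0.0199. The phosphatases Ptpn6 (-0.92 ± 0.17) and Ptpn1 (-0.57 ± 0.11) were the brakes called of 15 (adjusted p = 0.00119 and 0.00262). No SOCS box partner was called, and target genes had 1 higher and 1 lower of 13 for STAT5 and 1 higher and 3 lower of 10 for STAT3. The STAT5 targets were the kinase Pim2 (1.15 ± 0.33, adjusted p = 0.0263) and the repressor Bcl6 (-1.06 ± 0.33, adjusted p = 0.0401). The STAT3 targets with the smallest adjusted p were Fos (-1.42 ± 0.17), Mcl1 (-0.50 ± 0.12) and Hif1a (0.57 ± 0.14), at 3.25e-05, 0.00760 and 0.0115.

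Under CD4 blockade the single listed pathway gene called was Il10, at 57.7 CPM in treated deficient and 174 CPM in deficient CD4 cells (-1.58 ± 0.28, adjusted p = 0.0397). It was lower in treated CD4 cells and, at far lower levels, higher in treated CD8 cells (6.06 CPM in treated deficient and 1.43 CPM in deficient CD8 cells). The difference between these Il10 changes, CD8 minus CD4, was 3.73 ± 0.52 (adjusted p = 0.00236). The CD4 call was lost without any 1 of 5 of the 6 libraries and with the marker sums as covariates.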

How the data were processed

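Gene counts of 18 RNA-seq libraries were deposited, and every value rests on them. Per the file headers, the authors counted reads per gene model with featureCounts 1.5.1 (strand setting 2, Ensembl release 87), and the submitters' processing notes name STAR, DESeq2 and GRCm38; the library kit is not given in the sources used here. Identifiers were paired with symbols for 49326 of 49671 models. No row without a gene was present. All 18 libraries were fitted together in edgeR 4.0.16 (R 4.3.3) with filterByExpr, TMM scaling and the robust quasi-likelihood test, leaving 14080 genes and 12 residual degrees of freedom. P-values were Benjamini-Hochberg adjusted over all genes within a comparison and called under 0.05. A floor is 3 counts of a library's total and covers counting error only. Scripts were tested on simulated counts.

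Alternatives were RLE scaling, no filter, a minimum count of 30, DESeq2 1.42.0, limma 3.58.1 voom, a fit of each cell type alone, a replicate block, marker sums as covariates and leaving out each library. A replicate block within genotype and treatment was chosen after seeing the data. Deviations from group means over 10197 genes were correlated between same-numbered libraries. For CD8 against CD4, r was 0.284, 0.152 and 0.205 in untreated deficient and 0.192, 0.122 and 0.370 in treated deficient mice. In the other comparisons it ran from -0.148 to 0.273, the highest in CD8 deletion. No correlation was computed for libraries with different numbers, so these values have no reference. Treated replicate 2 was also the shallowest library in both cell types (3.2 M and 3.36 M counts). Pairing was therefore not settled. The labels do not say whether pools share animals.

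The members and lists were chosen with earlier results of these data known. Some results of the pathway lists are not reported here. Named genes were all members, Mir155hg, Cd4 and Cd8a, up to 3 genes per pathway list with the smallest adjusted p in each deletion and blockade comparison, and the 3 genes most like Socs1, Socs2, Socs3 and Cish. Also named were genes nearest to the members on the chromosome, and Rpl29 and Tma7, which were looked up by name. Likeness used 10023 genes with a mean of at least 5 CPM, on log2 CPM with a prior count of 2. Sequences come from RefSeq (GRCm38.p6) and GENCODE M21.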

Additional observations from a re-analysis of the deposited data

Results flagged for a closer look

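For 4 members the effect of deletion differed between the cell types by the test of the difference itself, CD8 minus CD4, made by quasi-likelihood in edgeR and adjusted over all genes. The values are log2 differences with 3 libraries in each of the 4 groups involved. Socs6 differed by 2.68 (adjusted p = 0.000267), with changes of opposite sign: it was higher in deficient than in floxed CD8 cells and lower in deficient than in floxed CD4 cells. Socs3 differed by 2.14 (adjusted p = 0.000215), being higher in all 3 deficient CD8 libraries and not called in CD4 cells. Cish differed by -2.50 (adjusted p = 0.0125), being lower in all 3 deficient CD8 libraries. Socs1 differed by 0.69 (adjusted p = 0.0369), the smallest of the 4 and the least stable to leaving out a library. With the melanoma and macrophage marker sums as covariates, the Socs3 difference stayed called (2.97, adjusted p = 0.00496), and those of Socs6 (1.86, adjusted p = 0.165), Cish (-1.17, adjusted p = 0.718) and Socs1 (0.78, adjusted p = 0.418) did not. Of all genes, 129 were called for this difference in that fit, against 1634 without covariates. The effect of blockade also differed for Il10, outside the SOCS family, by 3.73 (adjusted p = 0.00236), CD8 minus CD4, with opposite signs in the cell types. Il10 was not alone: receptor chains had 1 higher and 2 lower of 21 called for this difference. STAT5 targets had 1 higher of 13, and STAT3 targets 2 higher and 1 lower of 10. A gene can be in more than 1 list. Of all genes, 0.803% were called for this difference (0.575% higher and 0.227% lower). Its level in deficient CD8 cells was low, at 1.43 ± 1.17 CPM. The Il10 call in CD4 cells, as given above, was lost in leave-outs and with the marker sums as covariates.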

How the results depend on the processing

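Of 1104 values of members under alternatives, 982 kept their direction and side of the threshold, 53 lost a call, 24 gained one and 45 changed sign. Members and all genes called moved by over 1.5 times as follows. With marker covariates they were 1 and 107 (CD8 deletion), 0 and 9 (CD4 deletion), 1 and 710 (CD8 blockade), 1 and 484 (CD8 against CD4, floxed), 1 and 129 (difference of deletion) and 1 and 228 (difference of blockade), with 6 genes for CD4 blockade and 1427 for treated CD8 against CD4. With no filter they were 1 and 541 for CD4 blockade and 2 and 665 for its difference between cell types, and by DESeq2 1 and 177, and 2 and 355. The replicate block gave 1 and 65 for CD4 blockade and 1 and 179 for the difference. The block within genotype and treatment gave 2 and 286 for the difference. Pairing by number was not settled, as stated above. Against these stand 20 genes (CD4 blockade) and 113 genes (difference) in the fit reported.

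Leaving out each library gave 3 to 5 members and 1641 to 2716 genes for CD8 deletion (fewest members without floxed CD8 replicate 1, fewest genes without deficient CD8 replicate 1). It gave 804 to 1619 genes for CD4 deletion (fewest without floxed CD4 replicate 3), 1 to 3 members and 919 to 1651 genes for CD8 blockade (fewest genes without treated CD8 replicate 1), and 0 to 106 genes for CD4 blockade. CD8 against CD4 gave 1332 to 1745 genes in deficient and 1862 to 2301 in treated mice, and the difference of blockade 0 to 1 member and 49 to 108 genes.

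Signs turned with marker covariates for Ptpn11 (0.11), Socs4 (0.20) and Socs7 (0.29) in CD8 deletion, and for Cish (-0.32), Ifngr1 (-0.067), Il12b (1.45), Lifr (0.22), Socs3 (-1.003) and Stat4 (-0.0021) in CD4 deletion. They turned for Socs7 (-0.14) in CD8 and Socs4 (-0.040) in CD4 blockade, and in CD8 against CD4 for Socs4 (-0.58), Socs5 (0.80) and Socs7 (-0.86) in floxed, Socs3 (-0.21), Socs6 (0.24) and Socs7 (-0.21) in deficient and Socs4 (-0.25), Socs5 (0.082) and Socs7 (-0.38) in treated mice. In the difference of deletion they turned for Socs5 (-0.26) and Socs7 (0.65). Socs3 in CD4 deletion was -0.015 with the stricter filter and -0.0029 with the replicate block. Socs5 was 0.020 (floxed) and Socs6 0.016 (deficient) with limma voom, and Socs6 0.012 with no filter. The cause was not tested.

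Left-out libraries turned signs of uncalled members: Socs2 (-0.36 to 0.17), Socs3 (-0.24 to 0.13) and Socs5 (-0.075 to 0.58) in CD4 deletion, Socs5 (-0.11 to 0.022) in CD4 blockade, and Socs7 (-0.11 to 0.067) in the difference of blockade. In CD8 against CD4 they did so for Cish (-0.82 to 0.23), Socs4 (-0.057 to 0.14) and Socs5 (-0.51 to 0.14) in floxed, Socs3 (-0.11 to 0.36) and Socs6 (-0.16 to 0.18) in deficient and Socs4 (-0.065 to 0.13) in treated mice. Of the named pathway calls, 1 of 16 (CD8 deletion), 12 of 17 (CD4 deletion), 6 of 15 (CD8 blockade) and 1 of 1 (CD4 blockade) were lost without at least 1 library. Those of Jak2 in CD4 deletion and Elob in CD8 blockade were lost without any 1 of the 6 libraries, those of Ptpn11 (CD8 deletion), Stat4 (CD4 deletion) and Il10 (CD4 blockade) without any 1 of 5, and those of Bcl2 (CD8 blockade), Bcl6 and Ifng (CD4 deletion) without any 1 of 4. Those of Stat3 and Pim2 (CD8 blockade), Lifr, Il12b, Stat2 and Stat5b (CD4 deletion) were lost without any 1 of 3. Low counts limit Socs2 in CD8 cells, at 9 to 81 counts.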
